A study of Mus musculus with 6 samples.

Results

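The data described here are the lung transcriptomes of wild-type (WT) mice in a study of the translocator protein TSPO, which sits in the outer membrane of mitochondria and binds cholesterol. The members were chosen by genotype label alone: the 3 WT samples of the 6 in the series, each counted over 23473 genes. All 3 were lung of C57BL/6 mice aged 6 to 8 weeks and kept free of specific pathogens, and each sample was RNA pooled from 3 littermates, so that the group stands for 9 mice. The animals were bled through the abdominal aorta under pentobarbital before the lungs were taken. The labels give no sex. The samples are called WT pool 1, 2 and 3, and differences between the 3 pools may come from the mice or from the handling of the tissue, RNA or library, which cannot be told apart here. No gene was deleted in this group, and the knockout samples were not used.

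The lung is built around alveoli, where thin type 1 cells form the gas exchange surface and type 2 cells make surfactant, the lipid and protein film that lowers surface tension. The conducting airways are lined by ciliated cells and by club cells, secretory cells that release secretoglobins and detoxify inhaled compounds with cytochrome P450 enzymes. A dense capillary endothelium, fibroblasts that lay down elastic fibres, and resident macrophages make up most of the rest of the tissue. In whole tissue, fewer cells of a type and less RNA per cell cannot be told apart.

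The counts summed over genes were 10530340 in WT pool 1, 11315932 in WT pool 2 and 9617191 in WT pool 3, and 14558 to 14993 genes had at least 10 counts in a pool. Values are given as CPM, counts per 1000000 counts of the library scaled by the trimmed mean of M values (TMM). A level is CPM divided by the transcript's length in kilobases (CPM per kb), and 22824 genes had a length. It allows genes to be set against each other if the counts cover whole transcripts. Each value is followed by its SD over the 3 pools. The WT pools were separate libraries, since pairs of them differed by more than the sampling noise of their counts. Chi-square per degree of freedom was 16.9 for WT pools 1 and 2, and 117 and 128 for the pairs with WT pool 3. Abundant genes weigh most in this sum. The median coefficient of variation of a gene was 10.4%, against 5.29% that counting error alone gives. WT pool 3 stood apart in its ribosomal precursor RNA: Rn45s took 11.4% of its counts, against 0.224% in WT pool 1 and 0.263% in WT pool 2.

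To show the gene starts behind the main patterns, the 250 bases before the start site are printed for 5 genes. Sftpb and Sftpa1 were among the 20 highest genes, while Bpifa1 was highest in WT pool 1, Sprr3 was found only in WT pool 2, and S100a8 was highest in WT pool 3. The sequences are from RefSeq (GRCm38.p6), 5′ to 3′ on the gene's own strand. Of the 20 highest genes 15 had an entry in the promoter table, as did 14 of the 20 genes with the largest ratio between pools. Capitals mark TATAAA, the TATA box letters, and CTCAAG, a core of sites that the lung factor NKX2-1 binds, each searched on both strands (CTTGAG is CTCAAG on the other strand).
Sftpb, chr6:72304360-72304609, plus strand: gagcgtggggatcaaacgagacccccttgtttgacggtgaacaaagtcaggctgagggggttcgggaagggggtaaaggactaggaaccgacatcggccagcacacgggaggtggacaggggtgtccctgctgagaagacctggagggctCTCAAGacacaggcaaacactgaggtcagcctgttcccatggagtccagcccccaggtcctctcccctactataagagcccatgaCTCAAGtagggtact
Sftpa1, chr14:41131538-41131787, plus strand: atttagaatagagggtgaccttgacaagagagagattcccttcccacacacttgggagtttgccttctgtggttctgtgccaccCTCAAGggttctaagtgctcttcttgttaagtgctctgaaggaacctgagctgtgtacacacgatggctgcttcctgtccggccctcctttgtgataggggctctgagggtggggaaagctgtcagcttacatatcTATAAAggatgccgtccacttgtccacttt
Bpifa1, chr2:154142630-154142879, plus strand: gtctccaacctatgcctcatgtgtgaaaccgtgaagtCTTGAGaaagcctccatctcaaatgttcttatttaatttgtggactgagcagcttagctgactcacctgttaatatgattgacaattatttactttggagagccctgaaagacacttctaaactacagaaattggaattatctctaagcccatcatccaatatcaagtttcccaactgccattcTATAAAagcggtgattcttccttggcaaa
Sprr3, chr3:92458721-92458970, minus strand: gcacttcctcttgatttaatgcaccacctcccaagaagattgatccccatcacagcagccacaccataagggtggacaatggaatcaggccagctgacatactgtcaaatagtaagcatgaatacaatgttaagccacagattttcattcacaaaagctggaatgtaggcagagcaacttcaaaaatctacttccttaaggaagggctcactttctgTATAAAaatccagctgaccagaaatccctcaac
S100a8, chr3:90668821-90669070, plus strand: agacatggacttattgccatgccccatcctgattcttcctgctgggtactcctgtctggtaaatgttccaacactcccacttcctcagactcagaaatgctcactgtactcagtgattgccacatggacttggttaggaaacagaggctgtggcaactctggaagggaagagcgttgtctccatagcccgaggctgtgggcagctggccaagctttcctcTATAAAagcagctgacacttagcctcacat

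The TATAAA string began 30 bases before the start of Sftpa1 and S100a8, 29 before Bpifa1 and 33 before Sprr3, and it was not in the Sftpb window. CTCAAG began 100 and 15 bases before the start of Sftpb and 166 before Sftpa1, and 213 before Bpifa1 on the other strand. Among 32851 promoters of the same length 12.4% held TATAAA and 13.3% held CTCAAG. A match describes the letters and is not evidence of a bound site.

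In the mean of the WT pools 14750 genes, 62.8% of the 23473, reached 1 CPM, and 4727 had no count in any pool. Among the genes that reached 1 CPM the median level was 9.13 CPM per kb, with quartiles at 3.38 and 20.8. A level of at least 10 CPM per kb was reached by 6844 genes, 100 by 561 and 1000 by 21. The distribution was steep at its top: 428 genes held 50% of the summed level, the 10 highest held 20.4%, and Scgb1a1 and Sftpc together held 16.1%. Of the 100 highest genes of each pool, 85 were among the 100 highest of all 3.

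Scgb1a1, the club cell secretoglobin (chromosome 19), was the most abundant transcript per length, at 60135, 38232 and 43181 CPM per kb in WT pools 1, 2 and 3 (mean 47182 ± 11487, SD, n = 3). Sftpc, the hydrophobic surfactant protein of type 2 cells (chromosome 14), followed at 22201, 21965 and 24228 CPM per kb (22798 ± 1244). The lowest pool for Scgb1a1 lay above the highest pool for Sftpc, and WT pool 1 was the high sample for Scgb1a1. Lyz2, a lysozyme made by macrophages and type 2 cells, had a level of 3914 ± 661 CPM per kb. Cbr2, a carbonyl reductase of the airway, had 3077 ± 353 and Sftpb, another surfactant protein, had 2413 ± 305. These 5 genes had the same order in all 3 pools, and the ranges of neighbours did not overlap. Cbr2 and Sftpb were all but equal in WT pool 2, however, at 2726.2 and 2725.7 CPM per kb. From Sftpb down to the 21st gene every pair of neighbours overlapped between pools (16 of the 20 neighbour pairs).

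The remaining places were taken by general cell components and by a few lung genes. Mgp, a matrix protein that inhibits calcification, had a level of 1707 ± 43.6 CPM per kb, and Inmt, a methyltransferase of alveolar fibroblasts, had 1679 ± 97.1. Sftpa1, the surfactant collectin, had 1450.1 ± 207 CPM per kb, and Cyp2f2, the main P450 enzyme of club cells, had 1205 ± 167. The elongation factor Eef1a1 had 2363 ± 204 CPM per kb. The actin-binding Tmsb4x, the ferritins Fth1 and Ftl1, actin Actb, the ribosomal Rplp1 and Rps15, B2m of MHC class I and Tpt1 lay between 1089 and 1637 CPM per kb. The last of the 20 was Beta-s, a beta globin (current symbol Hbb-bs), at 1049 ± 328 CPM per kb, and its counts were nearly those of Hbb-b1, so that its reads may be shared between copies. Lars2, the mitochondrial leucyl-tRNA synthetase, was 7th by its mean only through WT pool 3, with 110, 119 and 6379 CPM per kb. Without WT pool 3 its level was 120.1 CPM per kb.

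**Figure D1:**
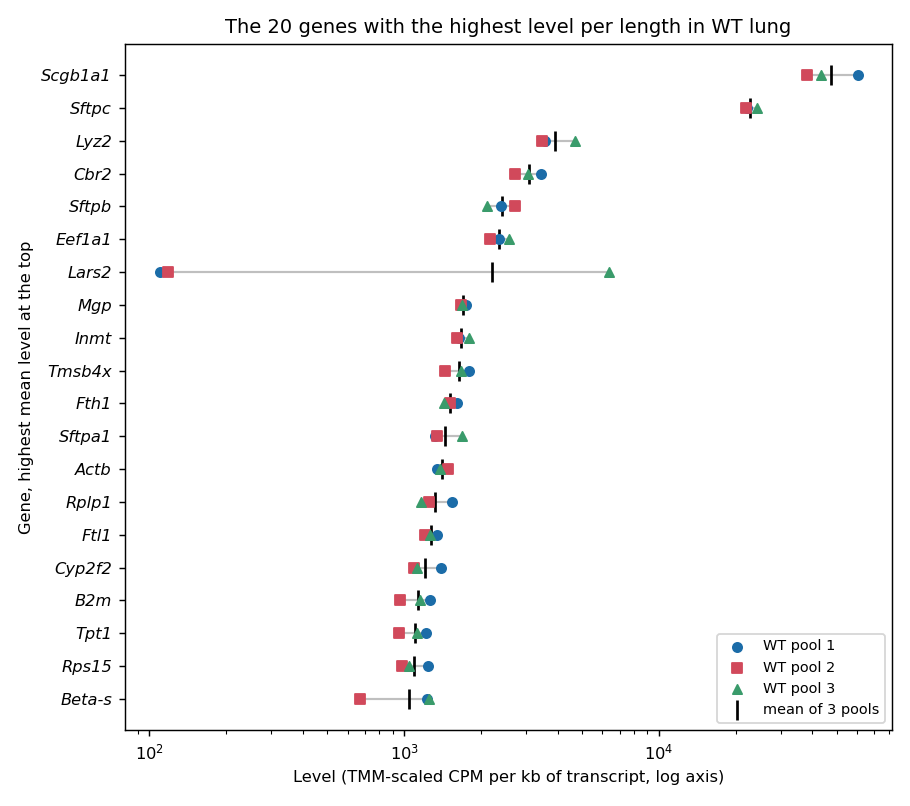
Level (TMM-scaled CPM per kb of transcript, log axis) of the 20 genes with the highest mean in WT lung, with a symbol for each of the 3 WT pools and a bar for their mean. Scgb1a1 and Sftpc stand above all others, and Lars2 is high in WT pool 3 alone (6379 against 110 and 119 CPM per kb).

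Type 2 cell genes were abundant, and their spread was near that of all genes. Their median ratio of highest to lowest pool was 1.249, against 1.221 over all genes measured. All 24 genes of the list reached 1 CPM, with a median level of 144 CPM per kb against 9.13 over all genes that reached 1 CPM. Their summed level was 29832, 29764 and 32683 CPM per kb in the 3 pools, of which Sftpc was the larger part. After Sftpc, Sftpb and Sftpa1 the highest member was Cxcl15 (listed as Il8), an epithelial chemokine, at 730 ± 166 CPM per kb (SD, n = 3). Chi3l1, a chitinase-like secreted protein, had the widest range of the list. It had 538, 212 and 507 CPM per kb, so that WT pool 2 was 2.54-fold below the highest pool. It was the only 1 of the 24 whose highest pool was over 2-fold above its lowest, and without WT pool 2 none was. Over all 12443 genes with a mean of at least 50 counts, 2.00% did so.

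Type 1 cell genes came next among the epithelial lists of the alveolus. All 20 reached 1 CPM with a median level of 112 CPM per kb, and none was over 2-fold between pools, where 2.00% of all genes were. Ager, the receptor for glycation end products that marks type 1 cells, had 969, 1128 and 877 CPM per kb (991 ± 127, SD, n = 3). Its most counted RefSeq entry carried the accession prefix of a noncoding transcript. The list's summed level was 4633 ± 299 CPM per kb (SD, n = 3). It was 10429.8 where the counts of all RefSeq transcripts of a gene were added up and divided by the length of the most counted one, and the cause of this gap was not tested. Hopx, a homeodomain protein without DNA binding, had 635, 644 and 656 CPM per kb and differed by 1.03-fold over the 3 pools. Cav1, the caveolae protein that endothelium also makes in quantity, had 538 ± 51.5 CPM per kb and the tight junction claudin Cldn18 had 439 ± 42.3.

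Club cell genes had the largest summed level of the lists and were also uneven. Their summed level was 66275, 42544 and 48426 CPM per kb, highest in WT pool 1, and Scgb1a1 was the larger part of it. Their median level was 64.4 CPM per kb, below the 144 of type 2 cell genes, and 15 of 16 genes reached 1 CPM. Scgb3a2, a secretoglobin without a matched length, had 757, 427 and 616 CPM. The secretoglobin Scgb3a1 had 464, 121 and 371 CPM per kb. Bpifa1, an airway antimicrobial and surface-active protein, had 380, 41.2 and 296. Reg3g, a secreted lectin that binds bacteria, had 101, 8.73 and 55.6 CPM per kb. These 3 and the sulfotransferase Sult1d1 were over 2-fold between pools, WT pool 1 was highest and WT pool 2 lowest in each, and they were 4 of the 15 measured (0.675% of all genes were over 2-fold with WT pool 1 highest). None of the 15 was over 2-fold once WT pool 2 was left out. Cyp2f2 and Cbr2, with 1.28-fold and 1.26-fold, varied far less than these secreted proteins.

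Goblet cell genes were scarce and the least even of the airway. The list's summed level was 91.6, 10.3 and 30.8 CPM per kb, 7 of 9 genes reached 1 CPM and Tff1 had no count. Clca3 (current symbol Clca1), a secreted metalloprotease of mucus, had 201, 2.47 and 22.6 CPM in WT pools 1, 2 and 3, an 81.5-fold range on 29 to 2259 counts. Muc5b, the gel-forming mucin of healthy airways, had 125.5, 54.4 and 78.8 CPM, and Muc5ac, the mucin of goblet cell metaplasia, had only 16 to 60 counts. Fcgbp and Tff2, both mucus proteins, ranged over 6.97-fold and 4.58-fold. Of the 9 genes 4 had a mean of at least 50 counts, and all 4 were over 2-fold with WT pool 1 highest (0.675% of all genes were). Of these 4, 2 passed that minimum only through WT pool 1, so that the filter itself favoured members high in that pool. The other 2 compare with 0.455% of all genes that passed also without WT pool 1. With WT pool 1 left out 1 of 2 was over 2-fold, and with WT pool 2 left out 2 of 4 were.

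Ciliated cell genes were also mostly highest in WT pool 1, with smaller ranges. Of 20 genes 19 reached 1 CPM, and 17 of the 19 measured were highest in WT pool 1, against 29.5% of all genes measured. Over 2-fold were 4 of the 19, all with WT pool 1 highest (0.675% of all genes), namely Ccdc153, Mlf1, Ccdc113 and Tekt1, a tektin of the axoneme. Mlf1 had 16.7, 6.14 and 14.01 CPM, a 2.72-fold range. Sec14l3, a lipid transfer protein of the airway epithelium, was the highest member at 709 ± 80.2 CPM per kb (SD, n = 3), followed by the tubulin-binding Tppp3 at 363 ± 39.2 and tubulin Tubb4b at 197 ± 19.8. Foxj1, the factor that turns on motile cilia, had 38.8, 30.0 and 22.2 CPM per kb. Without WT pool 1 the count over 2-fold was 1, and without WT pool 2 it was 0.

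Rare epithelial types were near the limit of the data. Among basal cell genes Trp63 had 5 to 27 counts and Ngfr 9 to 22, while Icam1, which many other cells make, gave most of the list's level at 165 ± 14.9 CPM per kb. Of the 10 neuroendocrine genes 4 reached 1 CPM and of the 8 tuft cell and ionocyte genes also 4. Their summed levels were 15.1 ± 1.58 and 6.91 ± 1.02 CPM per kb. Cftr, the chloride channel of ionocytes and of other epithelia, had 129 to 195 counts, a level of 2.48 ± 0.14 CPM per kb.

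Genes of blood vessel endothelium were abundant. All 27 general endothelial genes reached 1 CPM, none was over 2-fold against 2.00% of all genes, and they had a median level of 119.8 CPM per kb and a summed level of 4608, 5159 and 4775 in the 3 pools. Epas1, the hypoxia-inducible factor 2 alpha, was the highest at 633, 734 and 609 CPM per kb (659 ± 66.4, SD, n = 3). Cldn5, the endothelial claudin, had 449 ± 12.5, VE-cadherin Cdh5 had 369.6 ± 52.0 and Pecam1 had 320 ± 39.0. Among general capillary genes Plvap, a component of fenestral diaphragms, had 379 ± 74.2 CPM per kb. Among aerocyte genes, those of the large capillary cell spread thin over the alveolus, carbonic anhydrase Car4 had 137 ± 16.1. Large vessel genes were lower, with Vwf at 70.2, 90.0 and 55.3 CPM per kb. The summed level of the capillary and large vessel lists differed between pools by 1.06-fold to 1.18-fold. Lymphatic endothelial genes had a median level of only 3.80 CPM per kb, and 1 of the 5 measured was over 2-fold, the fibrinogen-like Fgl2 with 20.5, 14.5 and 29.7 CPM per kb (none without WT pool 2 or WT pool 3).

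Fibroblast and pericyte genes differed in evenness by list, while matrix genes were lower in WT pool 1. The median ratio of highest to lowest pool was 1.195 in alveolar fibroblast, 1.24 in pericyte and 1.381 in adventitial fibroblast genes. Over all genes measured it was 1.221. All 18 alveolar fibroblast genes reached 1 CPM and none was over 2-fold, where 2.00% of all genes were. After Inmt, the microfibril protein Mfap4 had 285 ± 46.4 CPM per kb and Npnt, the integrin alpha 8 ligand, had 191 ± 41.1. Gelsolin Gsn, in the adventitial list but made by many cells, had 964 ± 84.4. Eln, tropoelastin, had 96.9, 241 and 286 CPM per kb, a 2.95-fold range with WT pool 1 low. Col4a2 of the basement membrane had 97.8, 197 and 158 and its partner Col4a1 had 118, 226 and 194. Sparc, a matrix glycoprotein that binds collagen, had 512, 884 and 839. Of the 24 matrix genes 21 were highest in WT pool 2, against 37.0% of all genes measured, and none in WT pool 1, against 29.5%. Over 2-fold were 2 of the 24 (Eln and Col4a2), where 2.00% of all genes were. Without WT pool 1 none was over 2-fold, and without WT pool 2 Eln remained the only 1.

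Smooth muscle genes had a summed level of 847, 659.7 and 853 CPM per kb, with Tagln at 258, 156 and 243 and Acta2 at 178.5, 131 and 179.9. None of the 14 members was over 2-fold, where only 2.00% of all genes were. Mesothelial genes, of the pleura, summed to 271 ± 14.7 CPM per kb, with the keratin Krt19 highest and mesothelin Msln at 40.9 ± 5.30.

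Among the leukocyte lists that of alveolar macrophages had the largest summed level, but its median level was only 15.2 CPM per kb. The interstitial macrophage list summed to 657 ± 56.3 CPM per kb and the neutrophil list to 698 ± 323. The alveolar macrophage list summed to 4624, 4445 and 5784 CPM per kb, of which Lyz2, also made by type 2 cells, was the larger part. No member measured was over 2-fold, where 2.00% of all genes were. The next highest members were the protease Ctsd at 349 ± 6.00 CPM per kb and Chi3l3, the chitinase-like protein known as Ym1, at 278 ± 36.1. The scavenger receptor Marco, a more specific marker, had 11.2 ± 1.27. Among interstitial macrophage genes Apoe had 436 ± 41.4 CPM per kb and the complement component C1qa 40.7 ± 6.74. MHC class II genes were high, with Cd74 at 749.7, 718 and 475 CPM per kb and H2-Aa at 333 ± 43.9. The 14 class I genes summed to 2844 ± 309 CPM per kb and the 11 class II genes to 1652 ± 259, with ranges that did not overlap, and H2-K1 of class I had 688 ± 85.6. Neither class had a member over 2-fold, where 2.00% of all genes were. WT pool 1 was highest for 10 of 11 class II and 12 of 14 class I genes, against 29.5% of all genes measured.

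Lymphocyte genes were low and highest in WT pool 1. T cell genes summed to 142 ± 12.9 CPM per kb and none was over 2-fold, where 2.00% of all genes were. Of the 19 measured 14 were highest in WT pool 1, against 29.5% of all genes measured. The B cell list had 229.6, 149 and 137 CPM per kb, and 13 of 14 members were highest in WT pool 1 (29.5% of all genes). Cd79a and Cd79b, the signalling chains of the B cell receptor, had 53.4, 30.2 and 29.2 and 55.1, 34.3 and 34.0 CPM per kb. Faim3, the IgM receptor, was the only member over 2-fold (2.02-fold), and without WT pool 1 or WT pool 3 none was. Natural killer genes had 3 of 8 over 2-fold with WT pool 1 highest (0.675% of all genes), namely Ncr1, Klrb1c and Gzmb, on 36 to 101 counts. Of these 3, 2 passed the minimum of 50 counts only through WT pool 1, and without WT pool 1 none of 6 was over 2-fold. Leaving out WT pool 2 gave 1 of 8.

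**Figure D2:**
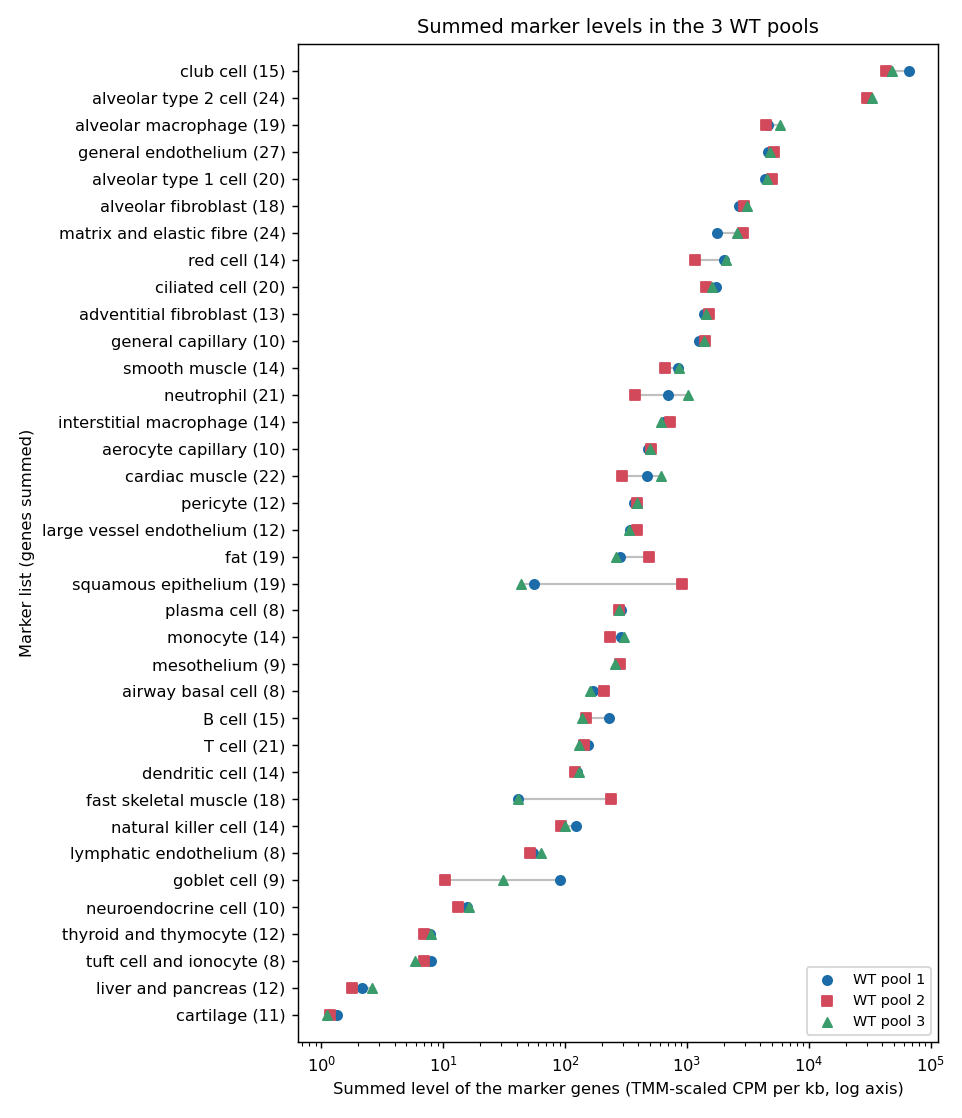
Summed level of marker lists (TMM-scaled CPM per kb, log axis) in the 3 WT pools, with the number of genes summed in brackets. Club and type 2 cell lists are highest, lists of cartilage, liver and pancreas are lowest, and squamous, fast skeletal muscle and goblet lists differ most between pools.

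Genes of cartilage, liver, pancreas and thyroid were scarce in every pool. Cartilage genes summed to 1.22 ± 0.11 CPM per kb over 11 genes and liver and pancreas genes to 2.19 ± 0.41 over 12, with 4 of the latter at 0 in every pool. Thyroid and thymocyte genes summed to 7.56 ± 0.56. The lung's own factors were present in every pool: Nkx2-1, the master factor of lung epithelium, had 63.9, 75.9 and 58.4 CPM per kb, and Foxf1, the mesenchymal and endothelial factor, had 103, 138 and 125. None of the 27 lung transcription factors measured was over 2-fold, where only 2.00% of all genes were.

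Functional groups were led by genes of the main lung cell types. Of 21 fluid and ion transport genes 20 reached 1 CPM, led by Slc34a2, the phosphate transporter of type 2 cells (555 ± 80.6 CPM per kb), and the water channel Aqp1 (457 ± 29.1). Among vascular tone genes Ace, the angiotensin converting enzyme, had 248, 328 and 265 CPM per kb. Of the antioxidant genes Gpx3 and Sod1 were highest at 506 ± 39.1 and 449 ± 33.5 CPM per kb, and the quinone reductase Nqo1, on 56 to 110 counts, was the only 1 of 28 over 2-fold (none without WT pool 1 or 2). Among P450 and related enzymes Cyp4b1 was even at 265 ± 2.36 CPM per kb, whereas 4 of 19 were over 2-fold, against 2.00% of all genes. Cyp26b1, which breaks down retinoic acid, had 24.7, 51.1 and 8.98 CPM per kb, and Cyp1a1, the target of the aryl hydrocarbon receptor, had 30.5, 65.3 and 70.5. Cyp2a5 was highest in WT pool 1. Without WT pool 1 or WT pool 2 the count was 2.

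Housekeeping functions took a large share of the level. Of 86 cytosolic ribosomal protein genes 83 reached 1 CPM with a median level of 347 CPM per kb, and together they held 7.59% of the summed level of all genes. None was over 2-fold, where 2.00% of all genes were. They were highest in WT pool 1 for 74 of the 83, against 29.5% of all genes measured. Oxidative phosphorylation subunits had a median level of 60.95 CPM per kb and 1 of 82 over 2-fold, not above the 2.00% of all genes. It was Cox8b, an isoform of muscle and brown fat with WT pool 2 highest, which passed the count minimum only through that pool. Proteasome subunits had a median of 43.9 CPM per kb and none over 2-fold. Gapdh, a glycolytic enzyme often used as a reference, had only 67.1 ± 7.86 CPM per kb, below Pkm at 208 ± 2.88 and Ldha at 185 ± 3.44. How reads shared with its pseudogenes were counted is not given in the sources used here.

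Tspo itself had 1721, 1766 and 1307 counts, or 153.5, 150.5 and 150.1 CPM. Its level was 181 ± 2.19 CPM per kb (SD, n = 3), the 280th of 22824 genes, and the pools differed by 1.02-fold. Of its partners the adenine nucleotide carrier Slc25a5 had 186 ± 17.5 CPM per kb, and Dbi, the acyl-CoA binding protein that is an endogenous TSPO ligand, had 119 ± 8.00. The voltage-dependent anion channels Vdac1, Vdac2 and Vdac3 had 66.8 ± 3.21, 57.1 ± 3.44 and 53.95 ± 3.77. Its paralogue Tspo2 had 3 to 5 counts, and Cyp11a1, the enzyme that begins steroid synthesis, had 2 or 3. None of the 17 members measured was over 2-fold, where only 2.00% of all genes were.

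Most genes differed little between the pools, with a long tail. The ratio of the highest to the lowest pool had a median of 1.22 among the 12443 genes with a mean of at least 50 counts, 1351 genes exceeded 1.5-fold and 249 exceeded 2-fold. The median coefficient of variation was 10.4%, against 5.29% that counting error alone gives, and the biological coefficient of variation was 0.137. Among 2301 genes with over 1000 counts the median was 9.25% against 2.43% from counting, and 0.608% were over 2-fold. Among 3850 genes with 50 to 200 counts it was 13.9% against 9.47%, and 4.47% were over 2-fold. Of the 249 genes WT pool 1 was highest in 84, WT pool 2 in 96 and WT pool 3 in 69. WT pool 2 was over 2-fold above both others in 55 genes, against 13 for WT pool 1 and 10 for WT pool 3. Without WT pool 2 the 249 fell to 70, without WT pool 1 to 151 and without WT pool 3 to 163.

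**Figure D3:**
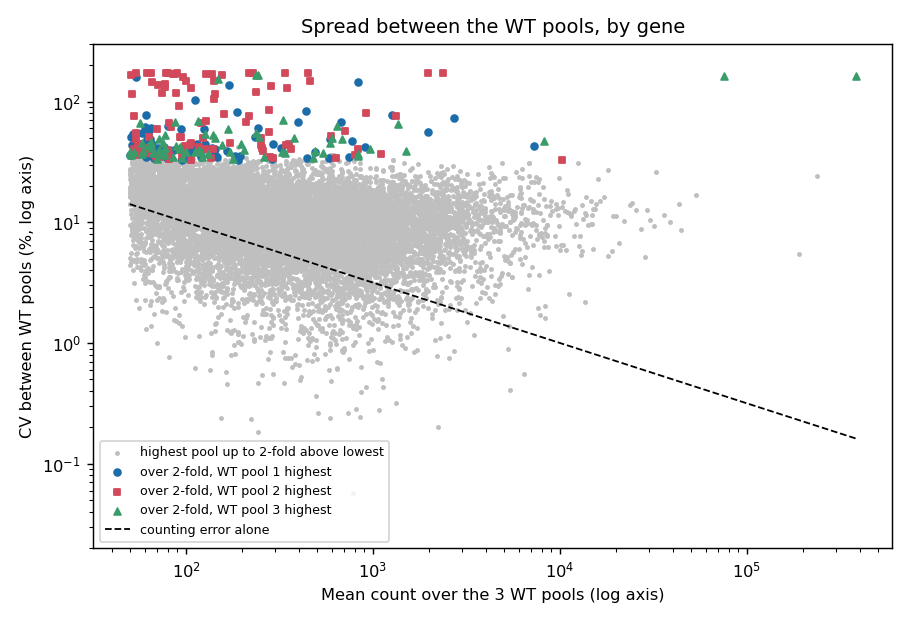
Coefficient of variation between the 3 WT pools (%, log axis) against the mean count (log axis) for 12443 genes, with the dashed line showing counting error alone. Coloured points are the 249 genes over 2-fold, by the pool that was highest, and the 2 triangles at the far right are Lars2 and Rn45s.

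WT pool 2 was the high sample for genes of stratified squamous epithelium, several of which were near 0 in the other pools. Krt13 and Krt4, keratins of the upper layers of oesophagus and other non-cornified linings, had 5, 7053 and 1 counts and 5, 5928 and 2 counts in WT pools 1, 2 and 3. In WT pool 2 these were 601 and 505 CPM, and Krt13 stood 107th of all genes there. The cornified envelope genes Lor, with 2, 1338 and 3 counts, and Tgm3, with 6, 457 and 3, were also highest in WT pool 2. Sprr3 had 0, 686 and 0 counts, at least 169.7-fold higher than a floor of 3 counts in a pool, Krtdap had 0, 233 and 0 (at least 57.6-fold) and Crct1 had 0, 269 and 0 (at least 66.5-fold). Serpinb12 had 3, 252 and 0 counts. The basal keratins Krt5, with 18, 205 and 9 counts, and Krt14, with 5, 66 and 4, were also highest in WT pool 2. Other members were plainly present in all pools. Rptn, repetin of the cornified envelope, had 72, 1256 and 48 counts and Asprv1, a protease of the epidermis, 58, 892 and 89. The secreted Dmkn and Sbsn had 201, 424 and 130 and 123, 284 and 111, ranges of 2.42-fold and 2.21-fold. Of the 19 squamous genes found 10 had a mean of at least 50 counts, and 5 of these only through WT pool 2. For those 5 the filter itself favoured members high in that pool. Of the other 5, 4 were over 2-fold with WT pool 2 highest, against 0.407% of all genes that had 50 counts also without that pool. Leaving out WT pool 2 left none of these 5 over 2-fold.

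Fast skeletal muscle genes were likewise highest in WT pool 2. Acta1, skeletal actin, had 5, 1002 and 2 counts, Tnnc2, fast troponin C, 1, 261 and 1, and the myosin heavy chain Myh1 2, 409 and 2. Myh8, the perinatal myosin heavy chain, had 0, 654 and 0 counts, at least 162-fold above the floor. The sarcoplasmic calcium pump Atp2a1 had 1.96, 23.3 and 2.76 CPM, an 11.9-fold range. Of the 18 genes 12 had a mean of at least 50 counts, but 9 of these only through WT pool 2. For those 9 the filter itself favoured members high in that pool. Of the other 3, creatine kinase Ckm was over 2-fold with 11.9, 49.9 and 13.8 CPM, and without WT pool 2 none of the 3 was. Summed levels were 41.2, 240.2 and 41.4 CPM per kb.

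Most fat genes were highest in WT pool 2 too. Ucp1, the uncoupling protein of brown fat, had 0, 378 and 4 counts, at least 120.4-fold above a floor of 3 counts in WT pool 1. Cidea, a lipid droplet protein, had 1.07, 15.9 and 1.49 CPM and Pck1, the gluconeogenic and glyceroneogenic enzyme, 3.30, 64.1 and 7.93. Fabp4, the fatty acid binding protein of adipocytes and capillaries, had 36.7, 87.7 and 40.5 CPM, and Car3, Cox8b and Plin1 ranged over 2.08-fold to 2.69-fold. Cfd, adipsin, did not follow this order, with 94.3, 93.5 and 67.5 CPM. In all 7 of 16 were over 2-fold with WT pool 2 highest (0.772% of all genes), and 3 of these 7 passed the minimum of 50 counts only through that pool. Of the 12 that passed it also without WT pool 2, 4 were over 2-fold, against 0.407% of all such genes, and without WT pool 2 the count was 1 of 13. Glycam1, a mucin of lymph node vessels and mammary gland, had 0, 240 and 0 counts, at least 59.4-fold above the floor. Zbtb16, Pdk4 and Fkbp5, which glucocorticoids induce in many tissues and which were picked after their values were seen, had 5.15-fold, 3.60-fold and 2.33-fold ranges with WT pool 2 highest. Whether glucocorticoids had a part in this was not tested.

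WT pool 1 was the high sample for some mucosal defence genes and for Chi3l4, Retnla and Gdpd3, which were picked after their values were seen. Besides Clca3, Chi3l4, a chitinase-like protein of the allergic lung, had 156, 3 and 4 counts. Retnla, a secreted product of macrophages and airway epithelium, had 222, 49.9 and 82.9 CPM, a 4.44-fold range. Gdpd3, a lysophospholipase D, had 39.95, 3.07 and 3.10 CPM, a 13.02-fold range. Of 22 mucosal and innate defence genes measured 6 were over 2-fold, against 2.00% of all genes, 5 of them with WT pool 1 highest (0.675% of all genes): Bpifa1, Reg3g, Bpifb1, Pigr (the transporter of IgA) and lactoferrin Ltf. The other, the protease inhibitor Slpi, had 51.6, 106 and 35.8 CPM. Without WT pool 1 the count was 4 and without WT pool 2 it was 2. In the same list the surfactant collectins were even, and Lyz1 and Lyz2 differed by 1.27-fold and 1.34-fold.

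WT pool 3 was highest for neutrophil and heart muscle genes. S100a9 and S100a8, the calprotectin chains of neutrophils, had 130, 52.4 and 229.6 CPM and 62.1, 25.7 and 106 CPM. Cxcr2, the neutrophil chemokine receptor, had 22.1, 17.9 and 61.3 CPM, a 3.43-fold range. Of 15 neutrophil genes measured 11 were over 2-fold (73.3%), 10 with WT pool 3 highest, against 0.555% of all genes, and Ltf was the other. All 15 had a mean of at least 50 counts also without WT pool 3, where the share over all such genes was 0.491%. Among granule genes Elane had 0, 3 and 0 counts and Camp 2 to 12, whereas Ltf had 730, 174 and 282 and Mmp8 73, 52 and 138. Without WT pool 2 the count was 3 of 15 and without WT pool 3 it was 6.

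Cardiac genes, which mouse lung can carry in the muscle sleeves of the pulmonary veins, had a summed level of 473, 294 and 607 CPM per kb. Myl7, the atrial myosin light chain, had 57.5, 31.6 and 90.96 CPM, and Tnnt2, cardiac troponin T, 65.9, 28.8 and 79.1. Of 19 genes measured 10 were over 2-fold, against 2.00% of all genes, and 9 of them had WT pool 3 highest (0.555% of all genes) and WT pool 2 lowest. The other, Myl3, a light chain of slow skeletal muscle as well, had 3.75, 13.1 and 5.51 CPM and passed the minimum of 50 counts only through WT pool 2. Without WT pool 2 none of 18 was over 2-fold, and without WT pool 3 the count was 3. Globin transcripts were also lowest in WT pool 2, with Hbb-bt at 186, 115 and 229 CPM per kb.

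WT pool 3 was also high for several noncoding RNAs and for Lars2, a coding gene with 427, 463 and 24839 CPM. Besides Rn45s at 2102, 2536 and 125956 CPM, Rmrp, the RNA of RNase MRP, had 17, 7 and 687 counts. Rpph1, the RNA of RNase P, had 23, 18 and 406, and Mir5109 had 16, 14 and 699. With these libraries the 10 most abundant genes took 7.59%, 6.31% and 19.7% of counts. Whether the other genes high in WT pool 3 depend on this was not tested. Leaving Rn45s out of the table before scaling changed the count over 2-fold from 249 to 248. Rn45s was itself among the 249, so this count does not answer that question.

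Immediate early genes, which cells induce within minutes of a stimulus, had 3 of 20 over 2-fold, against 2.00% of all genes. Nr4a1 had 55.0, 43.0 and 105 CPM and Egr1 48.9, 30.0 and 62.1, both highest in WT pool 3, while Myc had 9.99, 12.9 and 6.43. Without WT pool 2 or WT pool 3 none of the 20 was over 2-fold. The list's summed level was 915, 926 and 949 CPM per kb, a 1.04-fold range.

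Every pool held transcripts specific to each sex. Xist, made from the inactive X of females, had 701, 535 and 488 CPM. The Y-linked Ddx3y had 22.6, 22.7 and 39.97 CPM, Eif2s3y 9.01, 8.35 and 20.6, and Uty 4.73, 6.22 and 10.1. WT pool 3 was highest for all 4 Y-linked genes and lowest for Xist. The share of each sex in a pool is not given by the labels, and its part in the other differences between pools was not tested.

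**Figure D4:**
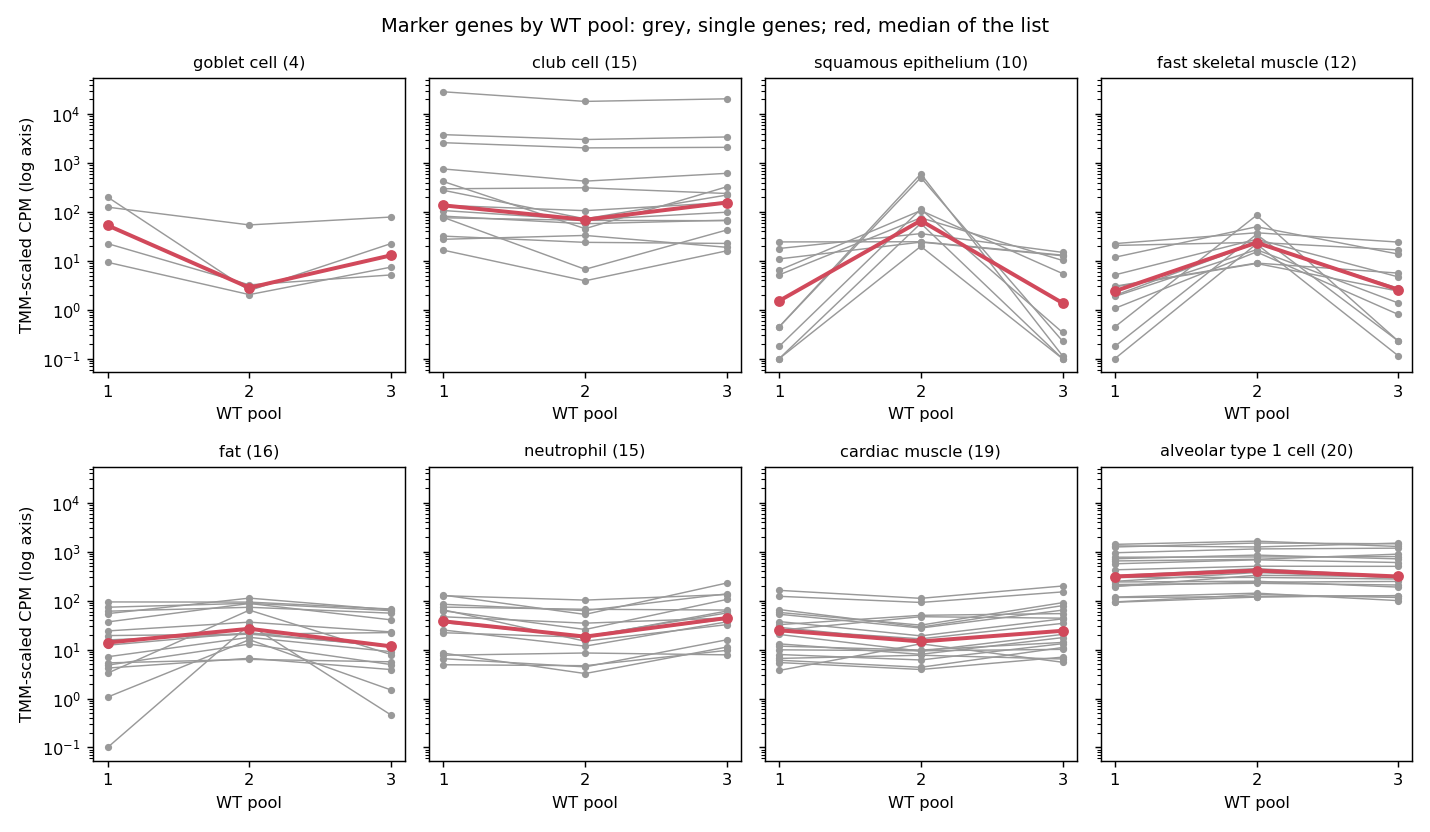
TMM-scaled CPM (log axis, values under 0.1 drawn at 0.1) of the members with a mean of at least 50 counts, by WT pool, for 8 lists, with single genes in grey and the median of the list in red. Squamous, fast skeletal muscle and some fat genes peak in WT pool 2 and goblet genes in WT pool 1. The 20 type 1 cell genes have a median ratio of highest to lowest pool of 1.238, against 1.221 over all genes measured. Of the members drawn 5 of 10 squamous, 9 of 12 fast skeletal muscle and 4 of 16 fat genes reached 50 counts only through WT pool 2, and 2 of 4 goblet genes only through WT pool 1.

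**Figure D5:**
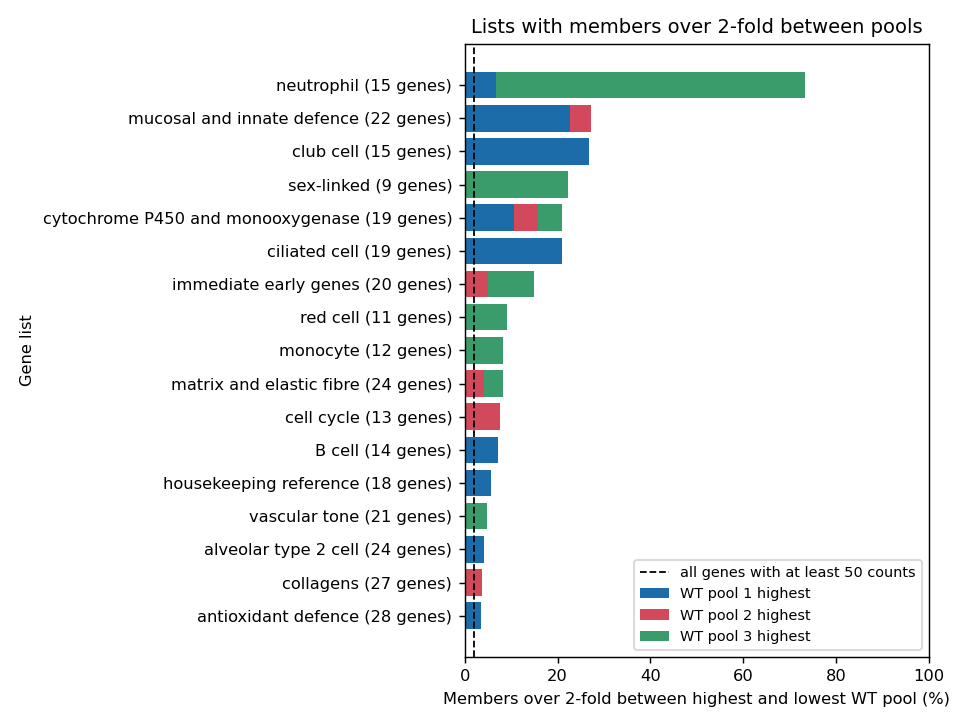
Percent of list members over 2-fold between the highest and lowest WT pool, coloured by the highest pool, for lists with at least 8 members measured and at least 1 over 2-fold, without the lists in which such a member passed the minimum of 50 counts only through 1 pool. The dashed line is the 2.00% of all 12443 genes, and neutrophil genes (11 of 15) lie farthest above it.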

How the data were processed

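Whole-lung RNA of each pool was sequenced by the authors as paired-end reads of 50 bases, which the series text calls tag profiling, and aligned to mm10 with TopHat (submitters' processing notes). The deposited table of raw counts, without normalization, has 64529 entries, and 31176 of them are RefSeq transcripts. Which program counted the reads, with which annotation and strand setting, and how it handled shared reads is not given in the sources used here. Of isoform pairs of unequal length 73.1% had more counts on the longer. Isoforms of a gene can share reads, so this cannot tell counts over whole transcripts from tag counts. Counts were taken to cover whole transcripts and divided by length, an assumption on which the levels rest.

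For each gene the RefSeq entry with the largest WT total was used, since transcripts of a gene can share reads (4464 genes had more than 1). The 33353 FANTOM3 clone entries (12.7% to 18.5% of counts) and the 3 KO columns were left out. In 49 entries a date stood for the gene name and 48 names were restored by accession. Library sizes were summed over genes and scaled by TMM in edgeR 4.0.16 (R 4.3.3), with factors of 1.07, 1.04 and 0.905. Other steps used Python 3.11.15. Lengths and positions came from GENCODE vM21 and RefSeq GRCm38.p6 by accession, and 649 genes without a length have CPM only. Spread was the ratio of the highest to the lowest pool, called over 2-fold for genes with a mean of at least 50 counts. Where a pool was at 0, 3 counts stood in as the floor. With 1 group there was no contrast and no test was run. The ratio was also tried on simulated counts, with a smaller spread than that of these pools and with changes well above 2-fold. Its error near 2-fold was therefore not measured. At this depth 1 count was 0.0852 to 0.115 CPM, and the pool number limits the precision more than depth does for abundant genes.

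Of 1262 list entries in 61 lists 1257 were found (Muc16, Trbc2, Ahsp, Flg and Acbd1 were not). The members and lists were chosen with earlier results of these data known. The rule for named genes took the 20 highest per length, the 20 largest ratios, Tspo, and in each list described up to 4 highest members and those over 2-fold. Not every gene it takes is named (some are not reported here), and other genes, named for their role, were chosen after their values were seen. Alternatives were other scaling, summed transcripts, other count minimums and folds, no Rn45s, TPM, CPM without length, and each pool left out.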

Additional observations from a re-analysis of the deposited data

How the results depend on the processing

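The count of genes that reached 1 CPM (14750) lay between 14471 and 14828 under every alternative. The count over 2-fold (249) was 247 with RLE size factors, 323 without composition scaling, 286 with transcripts summed and 248 without Rn45s, itself among the 249. It moved to 507 with a mean of at least 20 counts, 77 with at least 200, 3318 with no filter and a pseudocount of 1, and 86 at a fold of 3, and it ran from 70 to 163 with a pool left out. The share of counts in the 10 most abundant genes (11.2%) lay between 7.28% and 13.6%. Of the 20 highest genes per length 20 stayed among the 20 highest with TPM, RLE or no composition scaling, and 18 to 20 with a pool left out. Only 10 stayed with CPM not divided by length, and 8 with all transcripts of a gene summed. Dropping the scaling shifted the median gene by 0.09, 0.05 and -0.14 on the log2 scale in WT pools 1, 2 and 3.

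For the 20 highest genes, Tspo and the 61 lists, levels kept within 1.5-fold except 8 of the values computed. With a pool left out these were Lars2, goblet, squamous and fast skeletal muscle genes. With transcripts summed they were type 1 cell, adventitial fibroblast and fast skeletal muscle genes. By a narrower limit, 1 SD over the pools, 65 of the 82 levels moved with transcripts summed. Without WT pools 1, 2 and 3 the number moved was 11, 5 and 18, and Tspo moved each time. Other scaling moved none. Of the 249 genes over 2-fold 72 had a mean CPM that moved by over 1.5-fold with a pool left out (49 without WT pool 2). In the main setting genes with a mean under 50 counts were left out of the count over 2-fold. Values named for such genes rest on few counts, and 3 pools give no error for a difference between pools. No paired analysis was possible because a single group was described.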
